A study of Mus musculus with 6 samples.

Results

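Neat1 and Malat1 are a pair of abundant long noncoding RNAs that stay in the nucleus, and Sfpq, Nono, Pspc1, Rbm14 and Hnrnpk encode RNA-binding proteins of paraspeckles, the nuclear bodies that form around Neat1. These 7 genes of the 37477 Ensembl genes in the deposited table were chosen by symbol. Neat1 was chosen because it was lower in knockout muscle in 1 test, edgeR's quasi-likelihood test with no filter on low counts (log2 difference -0.33, adjusted p = 0.0215); its difference between genotypes is therefore given as a description. The proteins and Malat1 were added for their relation to Neat1, and all 7 passed the filter on low counts.

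RNA was sequenced from quadriceps, a large thigh muscle, of C57BL/6 mice aged 20 weeks, with 3 wild-type (WT) libraries and 3 libraries from mice whose estrogen receptor alpha gene (Esr1) had been knocked out in muscle (MERKO, called KO here). The labels name neither the transgene that drives the deletion nor the number of animals behind each library, so the spread behind the p-values is that between libraries and may be technical. Other cells of the tissue should keep the receptor, since the labels give the deletion as specific to muscle. Total counts ran from 7388365 to 8560244 per library. Esr1 had a mean CPM, counts per 1e6 counts of the library, of 5.96 ± 0.638 (SD, n = 3) in WT against 2.17 ± 0.374 (SD, n = 3) in KO. Its log2 difference was -1.45 ± 0.23 (SE). In edgeR's quasi-likelihood test with the filter on low counts its adjusted p was 0.145, the lowest of the 13848 genes tested. That test thus did not call the knocked-out gene itself, and a gene that did not pass it is not shown to be unchanged. The authors' edgeR test, as deposited, gave Esr1 an adjusted p of 0.00015. The 11 markers of muscle fibres, among them Acta1, Ckm and Ttn, summed to between 199313 and 247543 CPM in every library.

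Paraspeckles are built on the long form of Neat1. The proteins Sfpq, Nono and Pspc1 belong to 1 family, pair with each other and bind the RNA as it is made, while Rbm14 and Hnrnpk act in later assembly and in the choice of RNA form. A short polyadenylated form of Neat1 starts at the same promoter and is ended early by cleavage at a polyadenylation signal, which Hnrnpk is known to oppose in favour of the long form. Malat1, the neighbour of Neat1 in the genome, collects in nuclear speckles, where splicing factors are stored. In skeletal muscle, Malat1 and Neat1 have both been tied to the differentiation of myoblasts.

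Both genes lie on the minus strand of chromosome 19 in mm10 (GRCm38). Neat1 (ENSMUSG00000092274) spans 5824708 to 5845478 and Malat1 (ENSMUSG00000092341) spans 5795690 to 5802672, with 22035 bases between them. In GENCODE M21 the long Neat1 transcript, Neat1-201, is 1 exon of 20771 bases, and the short transcript, Neat1-202, is 3004 bases long and starts within 2 bases of it. The longest Malat1 transcript, Malat1-201, is 6983 bases long. The ends of these RNAs are shown because they decide how the RNAs are finished and which form a read can come from. Neither the long Neat1 RNA nor Malat1 ends in an ordinary poly(A) tail: the 3′ end is cut by RNase P, and U-rich stretches fold with an A-rich stretch into a triple helix that protects it. The first pair of sequences is the 110 bases that end with the A-rich stretch, at chr19:5824708-5824817 for Neat1 and chr19:5795982-5796091 for Malat1. Capitals mark every run of at least 10 bases that both windows share. The last sequence is the final 40 bases of the short Neat1 form, at chr19:5842307-5842346, with the polyadenylation signal in capitals. All are from GENCODE M21 on the minus strand, 5′ to 3′, with T for U.
Neat1-201: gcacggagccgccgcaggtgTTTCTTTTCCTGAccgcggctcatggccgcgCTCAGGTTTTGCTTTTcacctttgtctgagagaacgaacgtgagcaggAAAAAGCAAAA
Malat1-201: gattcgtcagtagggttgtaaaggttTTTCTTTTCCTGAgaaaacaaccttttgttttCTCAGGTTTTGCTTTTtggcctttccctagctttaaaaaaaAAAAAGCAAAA
Neat1-202: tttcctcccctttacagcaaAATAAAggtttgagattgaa

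Neat1 and Malat1 shared 3 such runs, of 13, 16 and 11 bases, in the same order, and each run occurred once in each full transcript. In the annotation the long Neat1 ended exactly at the A-rich stretch, whereas Malat1-201 went on for another 292 bases. The deposited counts are per gene, and the short Neat1 form lies within the long one, so the 2 forms could not be told apart. The labels do not say whether RNA with poly(A) was selected.

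Neat1 was lower in KO on average, and its groups overlapped by a narrow margin. WT replicates 1, 2 and 3 held 12755, 11037 and 10315 Neat1 counts, and KO replicates 1, 2 and 3 held 9174, 11125 and 9345. Scaled by TMM, which corrects for library composition, these were 1709, 1509 and 1308 CPM in WT and 1086, 1344 and 1157 CPM in KO. WT replicate 1 was the highest of the 6, and KO replicate 2 lay above WT replicate 3, the lowest WT library. The WT mean was 1508 ± 200.5 CPM and the KO mean 1196 ± 134 CPM (SD, n = 3 each), which is 20.7% lower. On the log2 scale KO minus WT came to -0.34 ± 0.10 (SE), and the 95% interval reached from -0.56 to -0.11. Counts divided by the library total alone gave a different order at this margin. There WT replicate 3 stood at 1335 CPM and KO replicate 2 at 1328 CPM, so that every KO library was under every WT library. In bulk tissue fewer cells of a type and less RNA per cell cannot be told apart.

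Counting error was a small part of the Neat1 spread. At its lowest count the counting error was 1.04% of the value, while the SD between libraries was 13.3% of the mean in WT and 11.2% in KO. In the fit with the filter on low counts the adjusted p of Neat1 was 0.989 over 13848 genes. The setting that chose it called 0.0793% of the 23953 genes tested there, and 0.0209% as lower. Neat1 had a log2 fold change of -0.32 in the authors' deposited table, with an adjusted p of 1.0. That table has 0.0133% of its genes under an adjusted p of 0.05 and none of the 7.

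Malat1 was 1 of the most abundant RNAs of the muscle and did not pass the test. The WT replicates held 40467, 36567 and 41524 Malat1 counts and the KO replicates 39479, 45211 and 39273, which made 5421, 5000.3 and 5264 CPM in WT against 4672, 5463 and 4863 in KO. KO replicate 2 was the highest of all 6 libraries and KO replicate 1 the lowest, so the groups overlapped fully. The means were 5228 ± 212 CPM (WT) and 4999 ± 413 CPM (KO; SD, n = 3 each). The log2 difference was -0.06 ± 0.08 (SE), and its 95% interval reached from 0.849 to 1.08 times the WT level (edgeR's quasi-likelihood test, adjusted p = 0.993). Malat1 took 0.518% ± 0.0216 (SD, n = 3) of WT counts and ranked 19th by mean CPM among the 13848 genes tested. Neat1 took 0.149% ± 0.0157 (SD, n = 3) of WT counts and ranked 73rd.

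**Figure D1:**
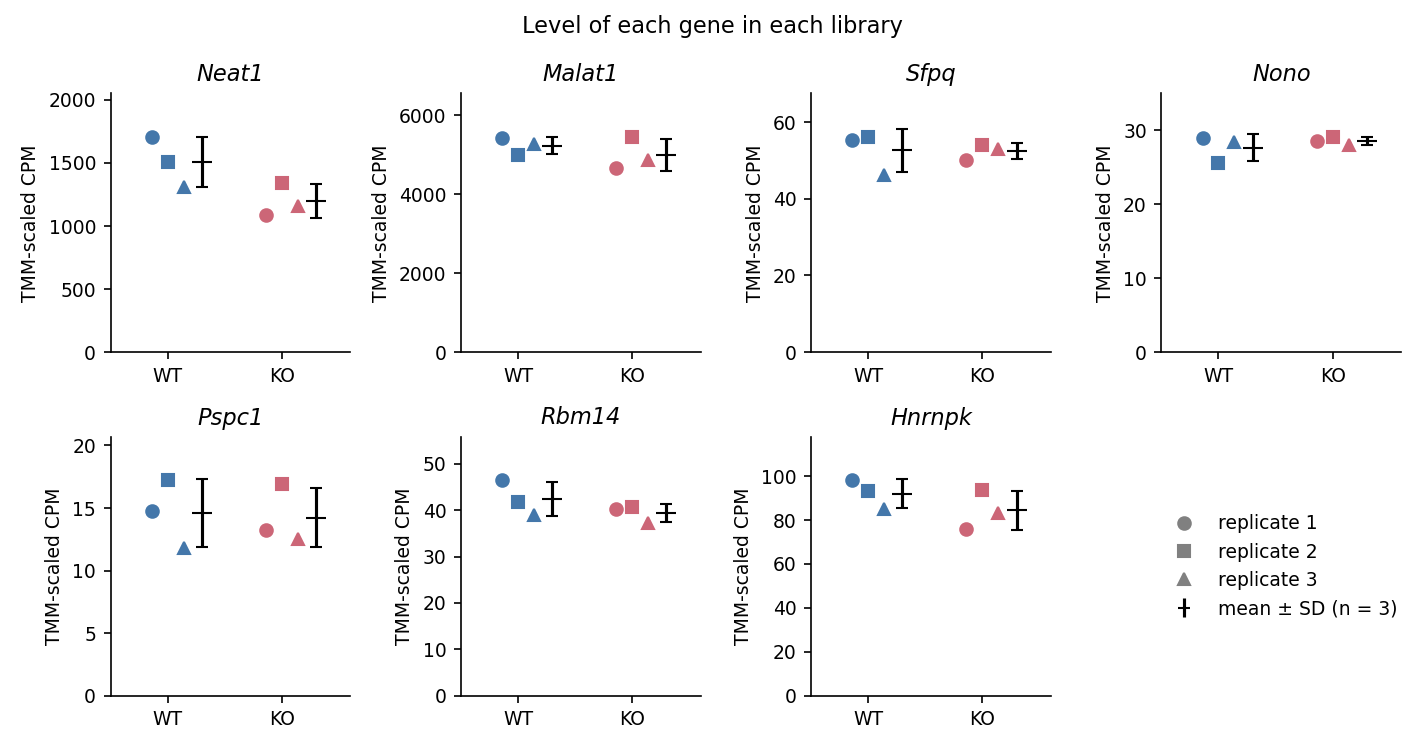
Level of each of the 7 genes in TMM-scaled CPM, with 1 point per library (symbols mark the replicate), WT in blue and KO in red, and the mean ± SD of 3 libraries in black. Neat1 runs from 1308 to 1709 CPM in WT and from 1086 to 1344 CPM in KO, and the groups overlap for all 7 genes.

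The ratio of the 2 RNAs within a library does not depend on library scaling. For each Malat1 count, WT replicates 1, 2 and 3 had 0.315, 0.302 and 0.248 Neat1 counts, whereas KO replicates 1, 2 and 3 had 0.232, 0.246 and 0.238. Every KO ratio was under every WT ratio, with WT replicate 3 just above KO replicate 2. The mean was 0.288 ± 0.0353 in WT and 0.239 ± 0.00689 in KO (SD, n = 3 each). The KO libraries lay close together, and the spread came from WT, where replicates 1 and 2 were high. The ratio rests on the contrast by which Neat1 was chosen and is given without a test.

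**Figure D2:**
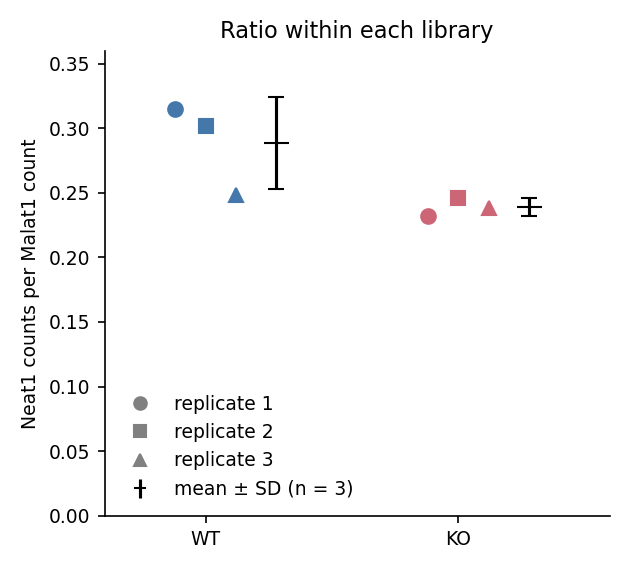
Neat1 counts per Malat1 count in each library (vertical axis, from 0), WT in blue and KO in red, with the mean ± SD of 3 libraries in black. KO libraries lie between 0.232 and 0.246 and WT libraries between 0.248 and 0.315.

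Per length of exon the 2 noncoding RNAs stood above the messages of the 5 proteins. Malat1 stood at 749 ± 30.4 CPM per kilobase of merged exons in WT and 716 ± 59.1 in KO (SD, n = 3 each). Neat1 stood at 72.6 ± 9.65 CPM per kilobase in WT and 57.6 ± 6.43 in KO, if all its reads are spread over the long form. If all came from the short form instead, the same counts would make 502 ± 66.7 CPM per kilobase in WT and 398 ± 44.5 in KO, so that the level per length of Neat1 is uncertain between these bounds. In WT, Malat1 was 10.3 times the level of Neat1 over the long form. The proteins' messages were lower on this scale: in WT, Hnrnpk was at 14.2 ± 1.05, Sfpq at 11.1 ± 1.16, Rbm14 at 10.8 ± 0.964, Nono at 6.32 ± 0.413 and Pspc1 at 2.54 ± 0.475 CPM per kilobase (SD, n = 3 each). Sfpq and Rbm14 did not differ beyond their spread, and the other neighbours in this order were apart by more than their SDs. Over the longest transcript in place of the merged exons the order was the same, but the spacing changed. Hnrnpk then stood at 31.0 ± 2.28, Sfpq at 15.2 ± 1.59, Rbm14 at 12.1 ± 1.07 and Nono at 10.8 ± 0.705 CPM per kilobase (SD, n = 3 each). On that scale Sfpq and Rbm14 were apart by more than their SDs, and Rbm14 and Nono were not.

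Of the paraspeckle proteins, the family of Sfpq, Nono and Pspc1 had log2 differences between -0.03 and 0.05, and none of the 3 passed the test. Sfpq, which is also a splicing factor and a transcriptional corepressor, lies on chromosome 4 from 127021324 to 127037013. It was at 55.3, 56.2 and 46.3 CPM in the WT replicates and 50.1, 54.1 and 52.9 CPM in the KO replicates. All 3 KO values lay inside the WT range, and the log2 difference was -0.0059 ± 0.09 (SE). Its 95% interval ran from 0.871 to 1.14 times the WT level (edgeR's quasi-likelihood test, adjusted p = 0.999). The sign of this difference turned to above 0 with upper-quartile scaling (0.0013) and with no scaling (0.012). On the same strand Gm12940 shares 216 bases with the exons of Sfpq and held 62 to 86 counts per library. Reads in those bases may not have been told apart.

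Nono, the usual partner of Sfpq, lies on the X chromosome from 101429318 to 101448591. It stood at 28.9, 25.6 and 28.4 CPM in the WT replicates against 28.5, 29.1 and 27.98 CPM in the KO replicates. The KO libraries lay close together, and WT replicate 2 was the lowest of the 6. The log2 difference was 0.05 ± 0.10 (SE), with an interval from 0.897 to 1.19 times the WT level (adjusted p = 0.993 in edgeR's quasi-likelihood test).

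Pspc1, the third member of the family, lies on chromosome 14 from 56720710 to 56778316. It was the least abundant of the 7 genes, with 93 to 140 counts per library. Its level was 14.7, 17.2 and 11.8 CPM in the WT replicates and 13.3, 16.9 and 12.5 CPM in the KO replicates. Replicate 2 was the highest library in each group, and both groups covered nearly the same range. The log2 difference was -0.03 ± 0.16 (SE), and its interval, from 0.776 to 1.23 times the WT level, was the widest of the 7 (edgeR's quasi-likelihood test, adjusted p = 0.995). At 93 counts the counting error was 10.4%, against an SD between libraries of 18.7% in WT and 16.6% in KO.

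Rbm14 and Hnrnpk were slightly lower in KO on average without passing the test. Rbm14, which is needed for whole paraspeckles to assemble, lies on chromosome 19 from 4800569 to 4811634. Its level was 46.5, 41.7 and 39.0 CPM in the WT replicates, and the KO replicates had 40.4, 40.6 and 37.1 CPM. WT replicate 1 stood above the other libraries, and WT replicate 3 lay inside the KO range. Its log2 difference was -0.11 ± 0.09 (SE), with an interval from 0.810 to 1.06 times the WT level (edgeR's quasi-likelihood test, adjusted p = 0.993). Of the exonic bases of Rbm14, 21% are shared with other genes, including Gm21992 on the same strand and Gm21844 on the other, so its counts are uncertain where the counting could not separate them. Neither Gm21992 nor Gm21844 has a row in the deposited table.

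Hnrnpk lies on chromosome 13 from 58391142 to 58403343. The WT replicates had 98.2, 93.3 and 84.8 CPM of it, and the KO replicates 76.1, 93.6 and 83.3 CPM. KO replicate 1 was the lowest library, while KO replicate 2 lay inside the WT range. The log2 difference was -0.13 ± 0.09 (SE), with an interval from 0.804 to 1.04 times the WT level (edgeR's quasi-likelihood test, adjusted p = 0.989). On the other strand Rmi1 shares 330 bases with the exons of Hnrnpk and held 43 to 60 counts per library.

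Over the 7 genes the fit called 0, beside 0.0% of all 13848 genes, and DESeq2 and limma voom called none of the 7 either. At an unadjusted p under 0.05 only Neat1 stood among the 7, against 4.26% of all genes (2.27% lower in KO), and it had been chosen for that difference. Of the 6 genes other than Neat1, 5 had a log2 difference below 0, where 50.7% of all genes did, and the median was -0.05 beside -0.0024 over all genes. Among these 5, the sign of Sfpq and of Pspc1 turned under other settings or without 1 library.

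**Figure D3:**
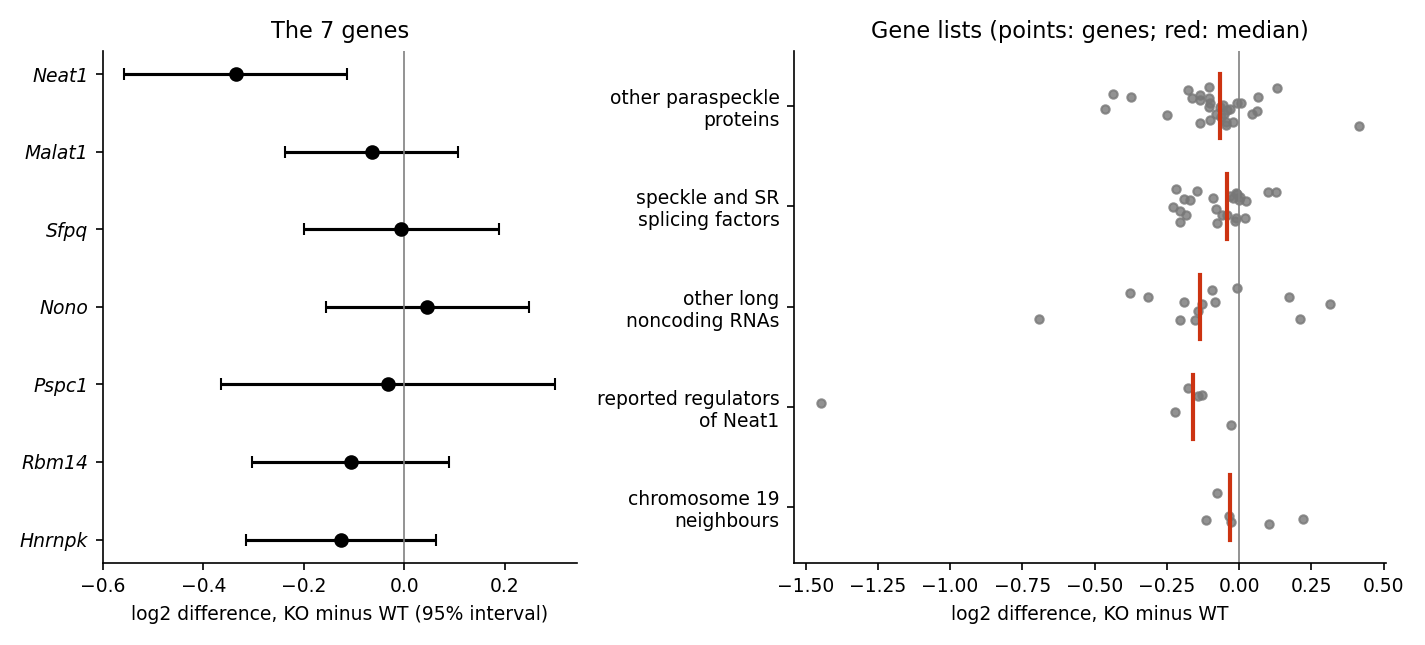
Left, log2 difference of KO from WT for the 7 genes with 95% intervals from edgeR's quasi-likelihood fit; right, the same difference for each tested gene of 5 lists, with the list median in red. Neat1 lies at -0.34 and was chosen because it was lower in KO, so its interval is a description and not a test. The intervals of the other 6 genes include 0.

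Within each genotype the libraries with more Neat1 also had more Hnrnpk. With the group means taken out, the log2 CPM of Neat1 and Hnrnpk had a Pearson r of 0.96 over the 6 libraries, which share the scaling factors of their library. The r with Neat1 was 0.81 for Sfpq, 0.75 for Rbm14, 0.73 for Pspc1, 0.68 for Malat1 and 0.20 for Nono. For Neat1 and for Hnrnpk the order was the same: replicate 1 above 2 above 3 in WT, and replicate 2 above 3 above 1 in KO. KO replicate 2 was the highest KO library for all 7 genes, a position it held for 34.2% of all genes tested. WT replicate 3 was the lowest WT library for 5 of the 7, beside 34.7% of all genes. These are descriptions of 6 libraries.

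**Figure D4:**
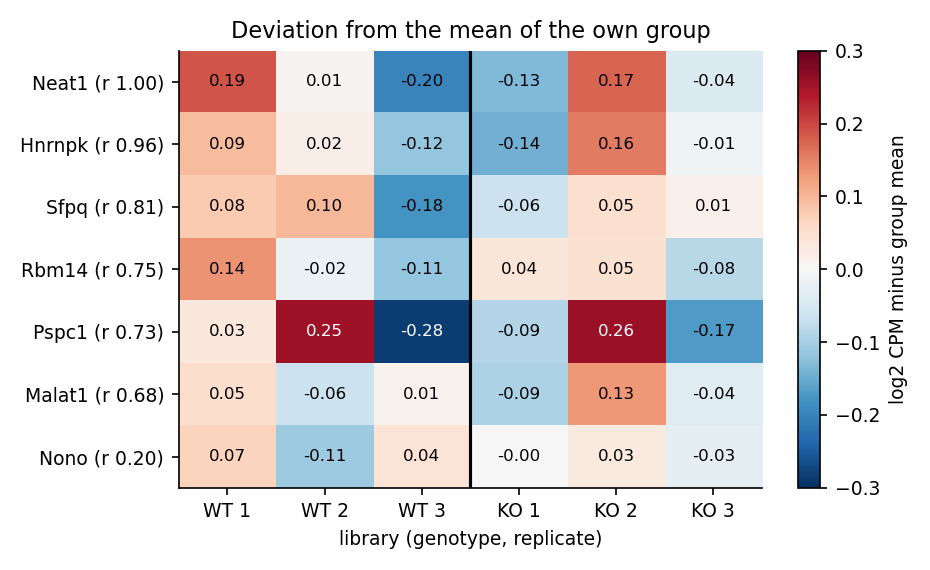
Deviation of log2 CPM from the mean of the own genotype, by gene (rows, with the Pearson r with Neat1) and library (columns). Neat1 and Hnrnpk are both highest in WT replicate 1 and KO replicate 2 and lowest in WT replicate 3 and KO replicate 1.

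With the group means taken out, other genes followed Neat1 more closely than Hnrnpk did. Among genes with a symbol and at least 5 CPM, 55 of 8410, or 0.654%, had a higher r with Neat1 than Hnrnpk. An r above 0.9 was found for 169 of 8411 genes with Neat1 and for 129 with Malat1. With 6 libraries and the group means taken out, unrelated genes can reach such an r by chance. The share expected by chance was not computed, so no relation is read from these values. The 5 most like Neat1 were Serpine2, a secreted protease inhibitor (r = 0.9997), Rpsa, a protein of the small ribosomal subunit (0.998), Pik3r4, a regulatory subunit of the lipid kinase of autophagy (0.997), the small GTPase Rab43 (0.996) and the splicing factor Syf2 (0.996). The 5 most like Malat1 were the RNA-binding protein gene Celf2 (0.995), Lsm14b (0.994), Atp5sl (0.993), the phosphatase gene Synj1 (0.988) and Smcr7l (0.987). With the group means left in, r with Neat1 was 0.25 for Serpine2, 0.54 for Rpsa and 0.05 for Pik3r4. It was 0.84 for Rab43 and 0.92 for Syf2. For the 5 genes named with Malat1, r with Malat1 then ran from 0.85 to 0.996.

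Other proteins known from paraspeckles had mostly negative differences, and none passed the test. Of 32 listed, 31 were tested; Celf6 had 0 counts in every library. Below 0 were 25 of the 31 and above 0 were 6, where 50.7% of all genes were below 0. The median log2 difference was -0.06, and 0 were called in either direction. At an unadjusted p under 0.05 there were 4, all lower in KO, beside 4.26% of all genes in either direction and 2.27% lower. Hnrnpa1, a regulator of splicing, was at 10.8 ± 2.48 CPM (WT) and 7.83 ± 0.323 CPM (KO), and Taf15, another RNA-binding protein, at 6.50 ± 0.642 and 4.80 ± 0.625 CPM. Rbmx was at 26.8 ± 2.92 and 22.5 ± 2.53 CPM, and Hnrnph3 at 9.48 ± 1.41 and 7.29 ± 1.14 CPM (SD, n = 3 each); all 4 had an adjusted p of 0.989 in edgeR's quasi-likelihood test. The KO libraries were all under the WT libraries for 5 of the 31, beside 5.45% of all genes, and all over them for 0, beside 4.96% of all genes. The log2 differences of the 31 ran from -0.46 for Hnrnpa1 to 0.42 for Nudt21, a subunit of the cleavage factor that guides the choice of polyadenylation site; Nudt21 was named after its value was seen.

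Nuclear speckle and SR splicing factors, the company of Malat1, were tested for all 25 listed genes. Of these 19 were below 0 and 6 above, where 50.7% of all genes were below 0. The median log2 difference was -0.04, and 0 were called. Srrm2, a scaffold of nuclear speckles, had 83.5, 85.1 and 80.9 CPM in the WT replicates and 69.3, 71.0 and 74.2 CPM in the KO replicates. The groups did not overlap, and the log2 difference of -0.22 ± 0.08 (SE) did not pass (edgeR's quasi-likelihood test, adjusted p = 0.989). KO libraries were all under WT for 3 of the 25, beside 5.45% of all genes, and all over WT for 0, beside 4.96%. The next by p were Pnn at -0.23, Rnps1 at -0.21 and Srsf3 at -0.18 on the log2 scale.

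Among other long noncoding RNAs, 15 of 31 listed symbols matched the table and 14 were tested. Of these 11 were below 0 and 3 above, where 50.7% of all genes were below 0. The median log2 difference was -0.14, and 0 were called. The KO libraries were all under the WT libraries for 4 of the 14, beside 5.45% of all genes. Xist, the nuclear RNA that coats the inactive X chromosome, had 202, 191 and 197 CPM in the WT replicates and 169, 170 and 178 CPM in the KO replicates, a log2 difference of -0.19 ± 0.07 (SE; edgeR's quasi-likelihood test, adjusted p = 0.989). Tug1 was at 34.1 ± 0.561 CPM (WT) and 29.6 ± 1.75 CPM (KO; SD, n = 3 each), with no overlap of the groups. Airn, which is transcribed across Igf2r on the other strand, was at 6.93 ± 0.893 and 4.29 ± 0.896 CPM (SD, n = 3 each). The labels do not say that strand was used in counting, so reads of Airn and of its partner may not have been told apart. Dnm3os had a log2 difference of -0.38.

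Genes around the pair on chromosome 19 lay on both sides of 0, and none was called. Of 7 listed neighbours 6 were tested, 2 above 0 and 4 below, with a median log2 difference of -0.03. Frmd8, the next protein-coding gene beyond Neat1, had a log2 difference of -0.12, Ltbp3 of -0.08 and Slc25a45 of 0.22. Small RNAs annotated inside the exons of both RNAs take up 1.85% of the bases of Neat1, and they and an antisense transcript take up 7.72% of those of Malat1.

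Transcription factors reported to act on Neat1 in other tissues were measured for all 6 listed, Esr1 among them. All 6 were below 0 in KO, beside 50.7% of all genes, and 3 had no overlap of the groups, beside 5.45% of all genes with KO under WT. Both counts include Esr1. Apart from Esr1, which was knocked out, the hypoxia factor gene Epas1 had 66.2, 71.8 and 64.1 CPM in the WT replicates and 59.2, 60.4 and 59.2 CPM in the KO replicates. Its log2 difference of -0.18 ± 0.08 (SE) did not pass (edgeR's quasi-likelihood test, adjusted p = 0.989). Atf2 was at -0.22 and Hif1a at -0.14 on the log2 scale. Of 3 genes of RNA editing and nuclear retention, Slc7a2, whose nuclear RNA form is held in paraspeckles, was at 34.4 ± 0.303 CPM (WT) and 30.3 ± 3.01 CPM (KO; SD, n = 3 each). Adarb1 and Adar, which edit adenosine in double-stranded RNA, had log2 differences of -0.22 and 0.04.

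Promoters were searched for the full estrogen response element, because the knocked-out factor binds it. Its letters are GGTCA, then any 3 bases, then TGACC, a palindrome that reads the same on both strands. RefSeq promoters (GRCm38.p6) of 300 bases matched 6 of the 7 genes, all but Neat1, and 0 of these 6 held it. It stood in 0.0700% of all 32851 promoters of that length. A single arm of it, GGTCA or TGACC, which every full element also holds, stood in 5 of the 6, all but Rbm14, and in 40.5% of all promoters of that length.

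Long transcripts as a whole were slightly lower in KO, and Neat1 is among the longest. Of the 1248 other tested genes with at least 10000 exonic bases, 867 had a log2 difference below 0, or 69.5%, beside 50.5% of all 13220 tested genes with a length. Their median was -0.06 beside -0.0018. The smoothed trend at the length of Neat1 was -0.09, and the Neat1 difference less this trend was -0.25; the data were in view when this correction was chosen. The same correction left Malat1 at -0.04 and Hnrnpk at -0.11. By library, the median deviation of long genes from their mean over all libraries was 0.04, 0.02 and 0.03 in the WT replicates and -0.01, -0.03 and -0.03 in the KO replicates. The part of transcript length in the Neat1 difference was not tested beyond this.

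**Figure D5:**
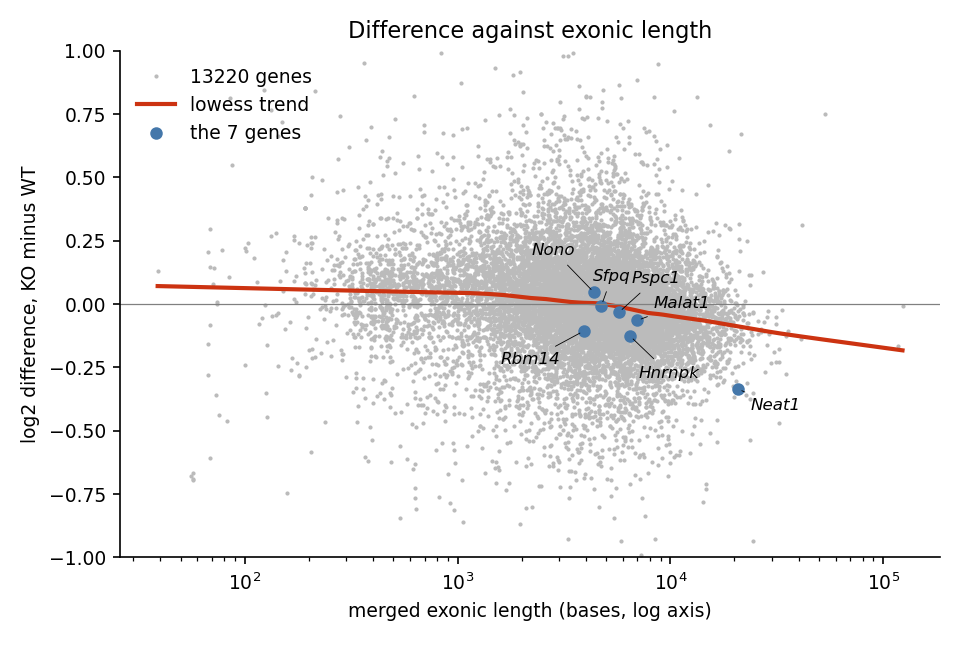
Log2 difference of KO from WT (vertical axis) against merged exonic length (horizontal, log axis) for 13220 tested genes in grey, with the smoothed trend in red and the 7 genes in blue; 21 genes lie outside the plotted range. At 20771 bases Neat1 lies at -0.34, below the trend of -0.09.

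The summed level of each list of cell type markers overlapped between the groups, each listed marker had counts in at least 1 library, and 0 single markers were called. The 7 endothelial markers summed to between 322 and 342 CPM in WT and between 295 and 328 CPM in KO. The 6 fibroblast markers summed to between 577 and 783 CPM in WT and 625 and 699 CPM in KO, the 7 macrophage markers to 72.5 to 94.8 and 90.6 to 101 CPM, and the 6 adipocyte markers to 58.3 to 90.4 and 85.2 to 90.1 CPM. The 6 Schwann cell and nerve markers summed to 53.6 to 75.6 CPM in WT and 44.3 to 74.4 CPM in KO, the 4 erythroid markers to 22.1 to 30.8 and 14.4 to 30.1 CPM, and the 5 satellite cell markers to 13.8 to 16.1 and 14.8 to 15.1 CPM. WT replicate 1, with the most Neat1 in WT, had the lowest adipocyte sum of WT, and KO replicate 2, with the most Neat1 in KO, had the highest adipocyte sum of KO. The muscle fibre sum was highest in both of these libraries, at 247543 CPM in WT replicate 1 and 217051 CPM in KO replicate 2. KO replicate 1, with the least Neat1, was close to the latter at 216531 CPM. Most of the muscle fibre sum was Ttn, with 174370 CPM in WT replicate 1 and 146828 CPM in KO replicate 2. Within each group Ttn ordered the libraries as the sum did. No other list was highest in both libraries.

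Some single markers had groups that did not overlap, and none of these passed edgeR's quasi-likelihood test after adjustment. KO libraries were all under WT for 1 of 7 endothelial and 1 of 11 muscle fibre markers, beside 5.45% of all genes. They were all over WT for 1 of 7 macrophage, 1 of 6 adipocyte and 2 of 11 muscle fibre markers, beside 4.96% of all genes. The other marker lists had 0. A log2 difference below 0 was found for 50.7% of all genes. The endothelial adhesion gene Pecam1 was at 91.2 ± 1.69 CPM in WT against 80.2 ± 6.43 in KO, and 6 of 7 endothelial markers had a log2 difference below 0. The macrophage receptor gene Mrc1 was at 21.05 ± 5.30 CPM in WT against 28.1 ± 1.27 in KO, and 3 of 7 macrophage markers were below 0. Plin1, which coats fat droplets, was at 6.83 ± 0.819 CPM in WT against 8.77 ± 1.22 in KO, and 5 of 6 adipocyte markers were above 0. All 5 tested Schwann cell and nerve markers were below 0. Of the fast myosins, Myh1 was at 3363 ± 547 CPM in WT against 4329 ± 347 in KO, and Myh2 at 10380.1 ± 102 against 9364 ± 329 (SD, n = 3 each). Myh4, the myosin of the fastest fibres, was at 303 ± 126 CPM in WT against 491 ± 89.2 in KO (SD, n = 3 each). Its groups overlapped. Myh7, the slow myosin, had a log2 difference of -0.05. Over all libraries Myh7 averaged 21382 CPM and Myh4 397 CPM. The slow troponin gene Tnnt1 averaged 3999 CPM and the fast one, Tnnt3, 2971 CPM. The tissue is quadriceps by the labels alone, and whether these levels are usual for it was not tested. The myosin genes are closely alike in sequence, and reads may have been split between them. The part of cell makeup and fibre type in the Neat1 difference was not tested.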

How the data were processed

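Quadriceps RNA of 3 WT and 3 KO libraries was sequenced; the library kit was Illumina TruSeq RNA, per the labels' protocols. Build mm10, TopHat 1.3.3 and edgeR were used, per the submitters' processing notes, which name no read counter and no treatment of multi-mapped reads. The deposited table holds raw counts per Ensembl gene, and the log2 fold changes, log2 CPM and p-values in it were computed by the authors. Its 37506 rows held 29 repeats, which were merged. The column names matched the 6 sample titles.

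Counts were tested with edgeR 4.0.16 in R 4.3.3: filterByExpr kept 13848 genes, followed by TMM scaling, the robust quasi-likelihood F-test on genotype, two-sided, and Benjamini-Hochberg adjustment over all genes tested at a threshold of 0.05. The SE was the log2 difference divided by the square root of F. Intervals of log2 differences used the degrees of freedom of the test. CPM used TMM-scaled library sizes, and correlations used log2 CPM with a prior count of 2. Exonic lengths and coordinates came from GENCODE M21. Listed genes were matched by symbol, or by GENCODE name where the table had no match. The test was tested on simulated data.

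Named were the 7 genes, Esr1, the up to 4 lowest unadjusted p of each list (for cell type markers the sums and a few single genes, chosen after their values were seen), and the 5 genes most like Neat1 and Malat1. The members and lists were chosen with earlier results of these data known. Alternatives were scaling by RLE, by upper quartile or not at all, no filter, keeping genes at 1 CPM in 3 libraries, limma 3.58.1 (voom), DESeq2 1.42.0, edgeR's likelihood ratio and exact tests, a replicate block, leaving out each library, the longest transcript as the length, and a length correction chosen after seeing the data. Some genes of the lists are counted but not reported here by name.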

Additional observations from a re-analysis of the deposited data

How the results depend on the processing

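Depth limited Pspc1 most, and only gene totals were available, so the forms of Neat1 were not separated. The number of genes called, 0 in the edgeR quasi-likelihood test (590 at an unadjusted p under 0.05), was 19 with no filter on low counts, 2 in DESeq2, 1 in limma voom, and 5 each in edgeR's likelihood ratio and exact tests. Leaving out 1 library gave 0 to 3 genes, the 3 without WT replicate 1. Neat1 was below 0 in all 17 alternatives, from -0.43 to -0.24, and was under an adjusted p of 0.05 in 1 of them, the setting that chose it. Without WT replicate 1 it was at -0.24. All 17 reuse counts of the libraries by which Neat1 was chosen, so its steady sign is a description and not support. Malat1 (-0.13 to -0.02), Hnrnpk (-0.21 to -0.06) and Rbm14 (-0.16 to -0.04) also kept their direction in all 17. The other 3 genes turned in some. For Sfpq the value was above 0 with upper-quartile scaling (0.0013), no scaling (0.012) and no filter (0.0032), and went from -0.092 to 0.043 when 1 library was left out. When 1 library was left out, Nono went from -0.0073 to 0.080 and Pspc1 from -0.17 to 0.10; the cause was not tested. The KO to WT ratio of the mean Neat1 counts per Malat1 count was 0.828. With 1 library left out it went from 0.774 (without WT replicate 3) to 0.868 (without WT replicate 1). It rests on the contrast by which Neat1 was chosen. Merged exons and the longest transcript have the same length for both RNAs, so that alternative could not move their ratio.

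With the replicate number as a block, 0 genes were called, and no call on the 7 genes changed. Same-numbered libraries had correlations of their deviations from -0.015 to 0.159, and differently numbered ones from -0.170 to 0.141. Of 6 libraries, 3 correlated best with their own number. With 3 libraries per group this cannot decide whether same-numbered libraries were paired, and the labels state no pairing.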
